A study of Mus musculus with 4 samples.

Results

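Transcripts of 9 genes of serine, glycine and proline synthesis and of the amino acid response were followed in mouse embryonic fibroblasts (MEF), with RNA-seq libraries that keep the strand of total RNA. The genes were *Phgdh*, *Psat1*, *Psph*, *Shmt2*, *Mthfd2*, *Aldh18a1*, *Pycr1*, *Asns* and *Atf4*, taken by name and chosen with earlier results of these data known. They make up 9 of the 20815 protein-coding genes that had a transcript in the deposited table, and 17 of its 63759 transcripts. Each gene is given by its transcript with the longest gene body, found by position on mm10. The cells were immortalized MEF of strain C57BL/6, grown from whole embryos of embryonic day 15.5 without head, limbs, tail, viscera, liver and heart. There was 1 library for each of 4 conditions, the Ctrl and TGFB1 treatments of *Hmga2*+/+ MEF and of *Hmga2*-/- MEF. HMGA2 is a chromatin protein that binds AT-rich DNA, and *Hmga2*-/- MEF lack its gene. All cultures were starved overnight in medium with 1% FCS. The TGFB1 cultures then received human recombinant TGFB1, a cytokine that activates fibroblasts, at 10 ng/ml for 24 h, and the Ctrl cultures received water. The cells were immortalized with SV40, and how many embryos or lines stand behind each genotype is not given in the sources used here. Genotype and cell line can therefore not be told apart, and there are no replicates against which to check a difference.

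Cells make serine from the glycolytic intermediate 3-phosphoglycerate through PHGDH, PSAT1 and PSPH, acting in that order. In mitochondria SHMT2 turns serine into glycine and hands a one-carbon unit to folate, which MTHFD2 oxidizes further. Proline is made from glutamate by ALDH18A1 and PYCR1, and asparagine is made from aspartate by ASNS. ATF4 is the transcription factor that cells make more of when amino acids run short or the endoplasmic reticulum is stressed, and genes of these pathways are among its known targets. Glycine and proline are abundant residues of collagen, the main product of activated fibroblasts. Standard DMEM, the medium named in the labels, supplies serine and glycine, whereas proline and asparagine are not among its components.

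ATF4 binds, together with C/EBP proteins, a composite element (CARE) whose core is TGATGNAA. This core and the E-box CACGTG, bound by MYC and related factors, were searched on both strands of the RefSeq promoter windows of GRCm38.p6, from 250 bases before to 50 bases after the start. All 9 genes had a window, and *Psat1* had 2. The CARE core was present in *Asns* and *Pycr1*, and the E-box in *Aldh18a1*. Of 27025 genes with a window, 4.51% held the CARE core and 8.09% held the E-box. Stretches of 120 bases are shown for the 3 genes with a match, with the match in capitals, and for *Shmt2* and *Atf4*, which had none, because *Asns* and *Shmt2* had the highest TGFB1 to Ctrl ratios of the 9 genes and *Atf4* encodes the factor itself. They are written 5′ to 3′ on the strand of the gene.
Asns: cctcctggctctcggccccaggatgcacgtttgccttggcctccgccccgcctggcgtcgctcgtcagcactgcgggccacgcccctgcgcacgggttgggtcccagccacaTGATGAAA
Pycr1: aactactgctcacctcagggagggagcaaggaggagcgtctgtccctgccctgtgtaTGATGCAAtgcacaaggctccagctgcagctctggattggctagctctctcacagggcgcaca
Aldh18a1: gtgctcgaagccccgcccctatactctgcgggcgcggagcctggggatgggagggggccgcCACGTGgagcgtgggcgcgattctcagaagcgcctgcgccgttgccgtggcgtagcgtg
Shmt2: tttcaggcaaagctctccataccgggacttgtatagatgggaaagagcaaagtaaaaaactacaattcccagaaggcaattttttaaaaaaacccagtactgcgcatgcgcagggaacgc
Atf4: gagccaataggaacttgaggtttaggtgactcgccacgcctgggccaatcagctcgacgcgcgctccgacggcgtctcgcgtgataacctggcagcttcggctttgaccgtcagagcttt
The *Asns* stretch is chr6:7693225-7693344 on the minus strand, and its CARE core begins at -23 from the RefSeq start. GENCODE vM21 places the *Asns* start further upstream, at 7693254, so that the 8 bases of the match lie in the first exon of that annotation. The *Pycr1* stretch is chr11:120643789-120643908 on the minus strand, with the core at -103. The *Aldh18a1* stretch is chr19:40588464-40588583 on the minus strand, with the E-box at -59. Neither of these matches lies on an exon of its gene. The *Shmt2* stretch is chr10:127522445-127522564 on the minus strand, and the *Atf4* stretch is chr15:80255064-80255183 on the plus strand. A match describes the sequence, is no measure of binding, and the absence of one covers these windows only.

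**Figure D1:**
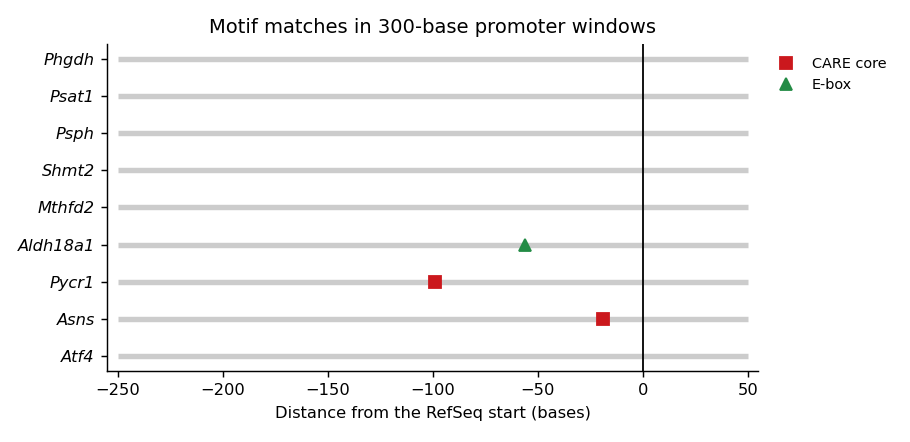
Position of motif matches in the promoter windows of the 9 genes, in bases from the RefSeq start (x axis), on grey bars that span the 300 bases searched. The CARE core lies at -103 in *Pycr1* and at -23 in *Asns*, the E-box lies at -59 in *Aldh18a1*, and the windows of the other genes hold neither.

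Depth was similar in the 4 libraries, between 56140000 and 57300000 mapped reads derived from the RPKM steps. RPKM divides the reads of a transcript by its length and by library depth. For a transcript of 1000 bases, 3 reads correspond to between 0.0524 and 0.0534 RPKM. *Hmga2* had 14.8 RPKM and 40.7 RPKM in the *Hmga2*+/+ Ctrl and TGFB1 libraries and 0 reads in both *Hmga2*-/- libraries. The known TGFB1 targets *Ctgf*, *Skil* and *Smad7* were at least 1.5-fold higher in the TGFB1 library of either genotype. All 8 fibroblast markers had at least 2.07 RPKM in every library, with summed levels of 1874, 1940.2, 2263 and 2159.7 RPKM in *Hmga2*+/+ Ctrl, *Hmga2*+/+ TGFB1, *Hmga2*-/- Ctrl and *Hmga2*-/- TGFB1. *Vim* made up the largest part of these sums, at 958, 1118.6, 1497 and 1389.7 RPKM. Between the Ctrl libraries, *Vim*, *Pdgfra* and *Dcn* were higher in *Hmga2*-/- MEF, and *Col1a1*, *Col1a2*, *Col3a1*, *Pdgfrb* and *Thy1* were lower. Single markers of the list moved with the treatment. In that order of libraries *Dcn* had 7.20, 2.68, 8.46 and 2.07 RPKM, *Pdgfra* had 24.4, 11.2, 27.1 and 15.3 RPKM, *Col3a1* had 287, 176, 237 and 141 RPKM, and *Thy1* had 5.31, 8.545, 4.11 and 8.88 RPKM. The other collagen markers, *Col1a1* and *Col1a2*, had 325, 363, 272 and 363 RPKM and 231, 212, 185 and 190 RPKM. Markers of epithelium, blood, hepatocytes and skeletal muscle were at or under 0.667 RPKM, with *Alb*, *Afp*, *Myod1*, *Myog*, *Hba-a1* and *Hbb-bs* at 0. The epithelial marker *Epcam* had 0.209, 0.667, 0.121 and 0.284 RPKM. Some genes listed as markers of other cells were expressed, and *Kdr* and *Tubb3* also moved with the treatment. *Kdr*, an endothelial receptor, had 1.11 RPKM and 4.46 RPKM in *Hmga2*+/+ Ctrl and TGFB1, and 1.46 RPKM and 7.39 RPKM in *Hmga2*-/-, while *Pecam1* and *Cdh5* stayed at or under 0.048 RPKM. The neuronal tubulin *Tubb3* had 0.913 RPKM and 2.81 RPKM in *Hmga2*+/+, and 0.957 RPKM and 4.37 RPKM in *Hmga2*-/-. *Sox2* lay between 1.04 RPKM and 3.20 RPKM, the macrophage marker *Cd68* lay between 1.25 RPKM and 1.63 RPKM, and *Csf1r* and *Adgre1* were at or under 0.041 RPKM. Summed over each list in the order *Hmga2*+/+ Ctrl, *Hmga2*+/+ TGFB1, *Hmga2*-/- Ctrl and *Hmga2*-/- TGFB1, the 3 endothelial markers had 1.14, 4.53, 1.47 and 7.46 RPKM and the 2 neural markers had 2.91, 6.01, 1.996 and 5.74 RPKM. The part of these shifts and of other cells in the results was not tested. In bulk RNA, a change in the number of cells of a kind and a change in the RNA per cell cannot be told apart.

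All 9 genes were at least 1.5-fold higher in the TGFB1 library than in the Ctrl library, in *Hmga2*+/+ and in *Hmga2*-/- MEF. In *Hmga2*+/+ MEF the increase ranged from 1.54-fold (*Psph*) to 4.25-fold (*Asns*) with a median log2 ratio of 1.05. In *Hmga2*-/- MEF it ranged from 1.55-fold (*Psph*) to 4.60-fold (*Asns*) with a median log2 ratio of 1.16. As a background, 10742 protein-coding genes reached 1 RPKM in 1 or more libraries, and of these 11.4% were at least 1.5-fold higher with TGFB1 in *Hmga2*+/+ MEF and 13.1% in *Hmga2*-/- MEF, while 16.8% and 15.1% were at least 1.5-fold lower. The median log2 ratio of these genes was -0.05 in *Hmga2*+/+ and 0.01 in *Hmga2*-/- MEF. By the transcript used, *Pycr1* passed this filter only through the *Hmga2*+/+ TGFB1 library. A shorter *Pycr1* transcript had at least 1.308 RPKM in every library. The other 8 genes had at least 3.865 RPKM in every library. The 95% interval of the ratio, which covers counting error alone and compares libraries rather than conditions, lay wholly above 1.5-fold for 7 genes in *Hmga2*+/+ MEF, all but *Psph* and *Pycr1*, and for 8 genes in *Hmga2*-/- MEF, all but *Psph*. The plots of levels and of log2 ratios give each gene.

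**Figure D2:**
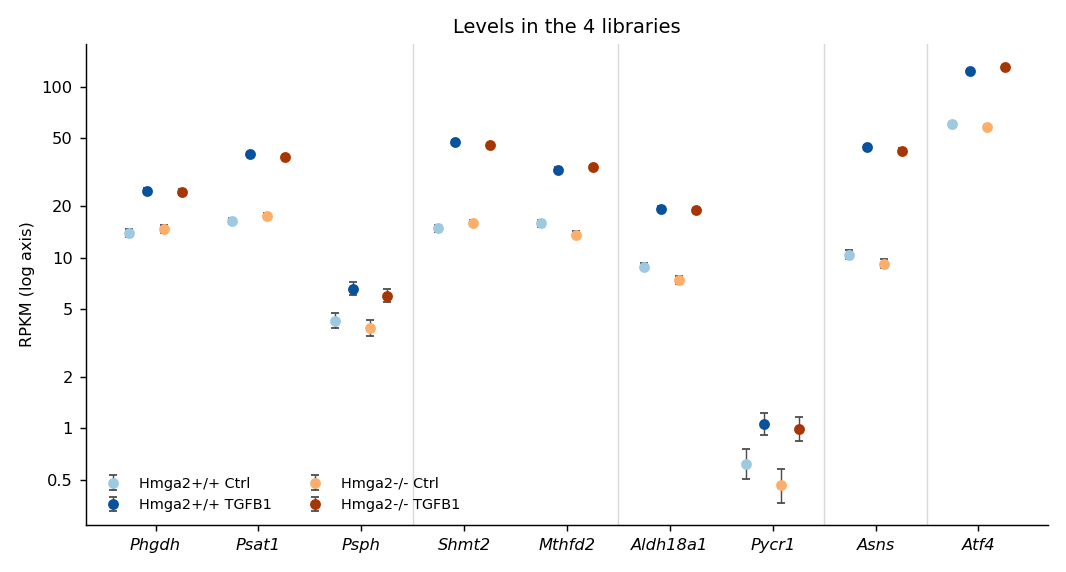
Level of each gene in RPKM (y axis, log scale) in the 4 libraries, with bars for the 95% exact Poisson interval of the reads, which are hidden by the points where reads are many. For every gene the TGFB1 point lies above the Ctrl point of either genotype, and the points of the same treatment lie close together, as for *Asns* at 10.4 RPKM and 9.21 RPKM in Ctrl and at 44.3 RPKM and 42.4 RPKM with TGFB1.

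**Figure D3:**
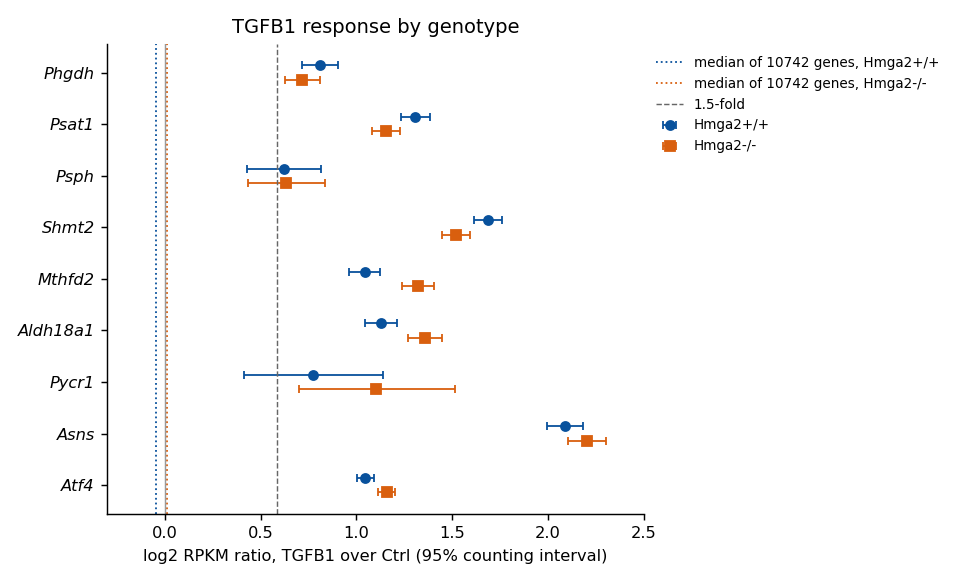
Log2 ratio of RPKM, TGFB1 over Ctrl (x axis), for each gene in *Hmga2*+/+ (circles) and *Hmga2*-/- MEF (squares), with 95% counting intervals. All points lie to the right of the dashed 1.5-fold line, from 0.62 (*Psph*, *Hmga2*+/+) to 2.20 (*Asns*, *Hmga2*-/-), and the medians of all genes, dotted, lie at -0.05 and 0.01.

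The enzymes of serine synthesis rose by unequal amounts. *Phgdh*, which encodes the enzyme that commits 3-phosphoglycerate to serine (minus strand, chr3:98313171-98339969), had 14.0 RPKM in *Hmga2*+/+ Ctrl, 24.5 RPKM in *Hmga2*+/+ TGFB1, 14.7 RPKM in *Hmga2*-/- Ctrl and 24.2 RPKM in *Hmga2*-/- TGFB1. Both TGFB1 libraries were higher than both Ctrl libraries, by a log2 ratio of 0.81 (95% interval 0.72 to 0.90) in *Hmga2*+/+ and 0.72 (0.63 to 0.81) in *Hmga2*-/- MEF. *Psat1*, the aminotransferase that follows (minus strand, chr19:15905123-15925059), had 16.4, 40.6, 17.5 and 38.9 RPKM in the same order of libraries. The log2 ratio of *Psat1* was 1.31 (1.23 to 1.38) in *Hmga2*+/+ and 1.15 (1.08 to 1.23) in *Hmga2*-/- MEF, the highest of the serine synthesis genes in either genotype. *Psph*, the phosphatase that releases serine (minus strand, chr5:129765558-129787253), had 4.28, 6.59, 3.865 and 6.00 RPKM. Its log2 ratio was 0.62 (0.43 to 0.82) and 0.63 (0.43 to 0.84), the lowest of the 9 genes in either genotype, and it was also the least expressed of the serine synthesis genes.

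Both mitochondrial enzymes of serine use rose by more than *Phgdh*. *Shmt2*, which makes glycine (minus strand, chr10:127517123-127522444), had 14.8 RPKM in *Hmga2*+/+ Ctrl, 47.7 RPKM in *Hmga2*+/+ TGFB1, 15.9 RPKM in *Hmga2*-/- Ctrl and 45.7 RPKM in *Hmga2*-/- TGFB1. Its increase was 3.22-fold in *Hmga2*+/+ (log2 ratio 1.69, 1.61 to 1.76) and 2.87-fold in *Hmga2*-/- MEF (1.52, 1.45 to 1.59). *Mthfd2*, the mitochondrial methylenetetrahydrofolate dehydrogenase (minus strand, chr6:83305704-83317604), had 15.9, 32.9, 13.6 and 34.1 RPKM. Its log2 ratio was 1.04 (0.96 to 1.12) in *Hmga2*+/+ and 1.32 (1.24 to 1.41) in *Hmga2*-/- MEF, where the Ctrl library started lower.

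The proline synthesis genes were expressed at very different levels. *Aldh18a1*, encoding the synthase that reduces glutamate (minus strand, chr19:40550257-40588463), had 8.855 RPKM in *Hmga2*+/+ Ctrl, 19.4 RPKM in *Hmga2*+/+ TGFB1, 7.39 RPKM in *Hmga2*-/- Ctrl and 18.9 RPKM in *Hmga2*-/- TGFB1. The log2 ratio of *Aldh18a1* was 1.13 (1.05 to 1.21) in *Hmga2*+/+ and 1.36 (1.27 to 1.45) in *Hmga2*-/- MEF. *Pycr1*, the mitochondrial reductase of the last step (minus strand, chr11:120635712-120643670), had only 0.621, 1.06, 0.463 and 0.993 RPKM, from 101, 176, 76 and 164 reads. Its log2 ratio was 0.77 (0.41 to 1.14) in *Hmga2*+/+ and 1.10 (0.70 to 1.51) in *Hmga2*-/- MEF, so that counting error alone allows less than 1.5-fold in *Hmga2*+/+ MEF. A shorter *Pycr1* transcript of 1783 bases, chr11:120639426-120643695, shares reads with this one and had 1.84, 3.07, 1.31 and 2.73 RPKM. The ratios of the shorter transcript were 0.74 in *Hmga2*+/+ and 1.06 in *Hmga2*-/- MEF.

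*Asns* had the highest TGFB1 to Ctrl ratio of the 9 genes and *Atf4* the highest level. *Asns*, asparagine synthetase (minus strand, chr6:7675171-7693182), had 10.4 RPKM in *Hmga2*+/+ Ctrl, 44.3 RPKM in *Hmga2*+/+ TGFB1, 9.21 RPKM in *Hmga2*-/- Ctrl and 42.4 RPKM in *Hmga2*-/- TGFB1. Its log2 ratio of 2.09 (1.99 to 2.18) in *Hmga2*+/+ and 2.20 (2.103 to 2.30) in *Hmga2*-/- MEF placed it 125 and 132 from the top of the 10742 genes. *Atf4* (plus strand, chr15:80255184-80257545) had 60.45, 125, 58.7 and 131 RPKM in the same order of libraries. The *Atf4* log2 ratio was 1.05 (1.00 to 1.09) in *Hmga2*+/+ and 1.16 (1.11 to 1.20) in *Hmga2*-/- MEF, rank 472 and 415. ATF4 protein is controlled largely by translation, which these data do not measure.

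The order of the levels changed with the treatment. In *Hmga2*+/+ Ctrl, *Atf4* was followed by *Psat1*, *Mthfd2*, *Shmt2*, *Phgdh*, *Asns*, *Aldh18a1*, *Psph* and *Pycr1*, and the counting intervals of neighbours overlapped from *Psat1* to *Phgdh*. In *Hmga2*-/- Ctrl the order was the same but for *Mthfd2*, which stood behind *Shmt2* and *Phgdh*. Its interval overlapped that of *Phgdh*, and that of *Phgdh* overlapped that of *Shmt2*, but *Mthfd2* and *Shmt2* did not overlap. With TGFB1 the order was *Atf4*, *Shmt2*, *Asns*, *Psat1*, *Mthfd2*, *Phgdh*, *Aldh18a1*, *Psph* and *Pycr1* in *Hmga2*+/+ as well as in *Hmga2*-/- MEF, and no neighbours overlapped. *Asns* thus went from position 6 to position 3. RPKM is scaled by transcript length, and these are levels, not differences.

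Between genotypes at the same treatment, none of the 9 genes differed by 1.5-fold. Over the 10742 genes, 2.37% were at least 1.5-fold higher and 1.64% at least 1.5-fold lower in *Hmga2*-/- than in wild-type Ctrl, and 3.12% and 1.98% with TGFB1, so a count of 0 among 9 genes lies near what genes in general showed. In Ctrl the log2 ratio of *Hmga2*-/- over *Hmga2*+/+ ranged from -0.42 (*Pycr1*) to 0.10 (*Shmt2*), with a median of -0.15. The counting interval held 0 for 4 genes and lay under 0 for *Mthfd2* (-0.22, -0.32 to -0.13), *Aldh18a1* (-0.26, -0.36 to -0.16) and *Asns* (-0.18, -0.30 to -0.05). It lay above 0 for *Psat1* (0.09, 0.003 to 0.18) and *Shmt2* (0.10, 0.01 to 0.19). With TGFB1 the ratios spanned a smaller range, from -0.14 (*Psph*) to 0.07 (*Atf4*), and 5 intervals held 0. The 5th and 95th percentiles of all genes were -0.38 and 0.38 in Ctrl and -0.36 and 0.45 with TGFB1, and only *Pycr1* in Ctrl lay outside them.

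The difference between genotypes in the log2 TGFB1 to Ctrl ratio, *Hmga2*-/- minus *Hmga2*+/+, was under 1.5-fold for all 9 genes. Since 3.55% of the 10742 genes exceeded it in either direction, this count too lies near what genes in general showed. It was positive and larger than counting error for *Mthfd2* (0.28, 0.16 to 0.39), *Aldh18a1* (0.23, 0.11 to 0.35) and *Atf4* (0.11, 0.05 to 0.18). *Psat1* (-0.15, -0.26 to -0.05) and *Shmt2* (-0.17, -0.27 to -0.06) differed the other way. The intervals of *Phgdh* (-0.09, -0.22 to 0.04), *Psph* (0.01, -0.26 to 0.29), *Pycr1* (0.33, -0.20 to 0.86) and *Asns* (0.11, -0.02 to 0.25) held 0. The median of all genes was 0.05. When libraries were rescaled by the median ratio, the interval of *Atf4* held 0 (0.06, -0.01 to 0.12), that of *Phgdh* lay under 0 (-0.14, -0.27 to -0.01) and *Psph* came to -0.04, while *Mthfd2*, *Aldh18a1*, *Psat1* and *Shmt2* kept their sign with intervals that did not hold 0. Without replicates, whether such differences exceed the spread between cultures could not be tested.

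**Figure D4:**
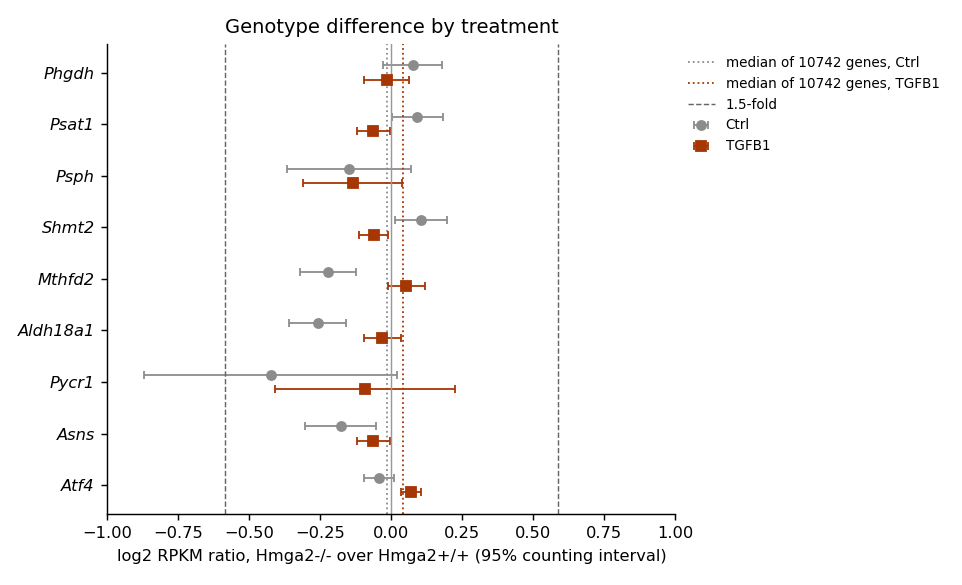
Log2 ratio of RPKM, *Hmga2*-/- over *Hmga2*+/+ (x axis), for each gene in Ctrl (circles) and with TGFB1 (squares), with 95% counting intervals. All points lie between the dashed 1.5-fold lines, from -0.42 (*Pycr1*, Ctrl) to 0.10 (*Shmt2*, Ctrl).

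Other genes of the same pathways were counted from lists. For comparison, 11.4% of the 10742 genes were at least 1.5-fold higher with TGFB1 in *Hmga2*+/+ and 13.1% in *Hmga2*-/- MEF. At least 1.5-fold lower were 16.8% and 15.1%. Of 9 further genes of the mitochondrial one-carbon pathway and glycine cleavage, 3 were at least 1.5-fold higher with TGFB1 in *Hmga2*+/+ MEF and 5 in *Hmga2*-/- MEF, and none was lower. The median log2 ratios of this list were 0.17 and 0.64, and over the 8 genes with a mean of at least 1 RPKM, without *Gldc*, they were 0.27 and 0.46. *Mthfd1l*, the mitochondrial formate producer, went from 3.45 to 8.82 RPKM in *Hmga2*+/+, and in *Hmga2*-/- MEF from 3.45 to 8.72 RPKM. *Aldh1l2*, which oxidizes mitochondrial formyl-folate, went from 17.4 to 39.8 RPKM and from 14.5 to 30.7 RPKM. *Gcsh*, the carrier protein of glycine cleavage, went from 8.235 to 12.8 RPKM and from 7.395 to 14.0 RPKM, whereas *Amt* of the same complex was under the call at log2 ratios of -0.55 and -0.32. In *Hmga2*-/- MEF the folate carrier *Slc25a32* and *Gldc*, the glycine decarboxylase of that complex, were also counted as higher, *Gldc* at under 1 RPKM in every library.

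Of 10 cytosolic one-carbon and thymidylate genes, 2 were higher and 1 lower in either genotype, of which *Ftcd* (higher), *Aldh1l1* (lower in *Hmga2*+/+ MEF) and *Mthfs* (lower in *Hmga2*-/- MEF) were under 1 RPKM in every library. The remaining gene, *Mtrr*, which reactivates methionine synthase, had log2 ratios of 0.87 and 0.80. *Shmt1*, the cytosolic counterpart of *Shmt2*, was under the call at 0.44 and 0.46, from 11.0 to 14.9 RPKM and from 10.7 to 14.7 RPKM. *Mthfd1* was under it at 0.43 and 0.54. The counts of this list lie near the shares of genes in general given above.

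Of 10 further genes of proline synthesis and breakdown, none passed 1.5-fold in *Hmga2*+/+ MEF. In *Hmga2*-/- MEF 2 were higher, among them the liver-type glutaminase *Gls2* (log2 ratio 0.77), and *Prodh* was lower at 0.101 and 0.050 RPKM. *Gls2* reached 1 RPKM with TGFB1 only, at 0.864 and 1.03 RPKM in *Hmga2*+/+ and at 0.684 and 1.17 RPKM in *Hmga2*-/- MEF. *Pycr3*, a cytosolic relative of *Pycr1*, had 4.67, 3.19, 3.84 and 3.32 RPKM. *Oat*, which links ornithine to proline, had 39.4, 29.1, 38.6 and 32.8 RPKM, and *Aldh4a1*, of proline breakdown, had 3.48, 2.47, 3.425 and 2.69 RPKM. *Glud1* and *Pepd* were also under the call, with log2 ratios between -0.11 and 0.33, and *Prodh2* was listed at 0.

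Around *Asns*, 3 of 10 genes of aspartate, asparagine and glutamate metabolism were higher and 1 was lower in either genotype, the lower one being *Asrgl1* at under 1 RPKM in every library. The higher ones were *Ass1*, which consumes aspartate in arginine synthesis, with 8.39, 34.9, 12.9 and 49.1 RPKM, *Gpt2* with 3.50, 6.14, 2.74 and 5.175 RPKM, and *Got1* with 4.50, 7.47, 3.21 and 7.30 RPKM. *Gpt* had log2 ratios of -0.56 and 0.08. Among 12 genes of serine use and breakdown, 1 was higher in either genotype, *Cth*, which makes cysteine, at 2.21, 8.44, 2.225 and 7.655 RPKM. In this list 3 genes were lower in *Hmga2*+/+ and 4 in *Hmga2*-/- MEF, but of these only the serine racemase *Srr* reached 1 RPKM, at 4.26, 1.96, 3.64 and 1.79 RPKM. The others were *Sdsl*, with *Gnmt* in *Hmga2*+/+ and *Sds* and *Cbs* in *Hmga2*-/- MEF. *Gcat* and *Sptlc1* were under the call.

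The lists of amino acid uptake, tRNA charging and ATF4 targets stood higher with TGFB1. Among the 10742 genes, 11.4% were at least 1.5-fold higher in *Hmga2*+/+ and 13.1% in *Hmga2*-/- MEF. Of 16 amino acid transporters, 9 were higher in either genotype and 1, *Slc6a20b* at 0.005 RPKM and 0 RPKM, was lower in *Hmga2*+/+ MEF, with median log2 ratios of 0.77 and 0.79. *Slc7a11*, the cystine importer, went from 0.579 to 3.44 RPKM in *Hmga2*+/+, and in *Hmga2*-/- MEF from 0.547 to 2.48 RPKM. *Slc1a4*, which carries neutral amino acids such as serine, went from 2.30 to 6.44 RPKM and from 1.95 to 6.60 RPKM. The cationic carriers *Slc7a1* and *Slc7a3* had log2 ratios of 1.58 and 1.98 in *Hmga2*+/+ and 1.53 and 1.35 in *Hmga2*-/- MEF. *Slc7a3* reached 1 RPKM with TGFB1 only, at 0.362 and 1.43 RPKM in *Hmga2*+/+ and at 0.476 and 1.22 RPKM in *Hmga2*-/- MEF. *Slc38a2* was under the call, at 56.5 and 60.3 RPKM in *Hmga2*+/+ and at 51.6 and 55.5 RPKM in *Hmga2*-/- MEF. Of 20 cytosolic aminoacyl-tRNA synthetases, 15 were higher in either genotype and none lower, with medians of 0.72 and 0.70. *Iars* led them at log2 ratios of 1.21 and 1.27, followed in *Hmga2*+/+ MEF by *Tars* (1.07), *Nars* (1.04) and *Lars* (0.96). Of 19 ATF4 and stress response targets, 13 were higher and 1 lower in *Hmga2*+/+ MEF, and 15 higher and 1 lower in *Hmga2*-/- MEF, with medians of 0.85 and 0.81. The lower genes were *Jdp2* in *Hmga2*+/+ MEF and, at under 1 RPKM, *Gdf15* in *Hmga2*-/- MEF. Of the 15 higher genes in *Hmga2*-/- MEF, 1 was also under 1 RPKM in every library. *Fgf21*, a stress hormone, went from 0.151 to 1.48 RPKM and from 0.113 to 1.53 RPKM, with only 8 and 6 reads in the Ctrl libraries. *Trib3*, a feedback inhibitor of ATF4, went from 1.92 to 5.63 RPKM and from 1.495 to 5.06 RPKM. *Chac1*, which degrades glutathione, had log2 ratios of 1.29 and 1.45. *Ddit3* was under the call, at 19.7 and 19.4 RPKM in *Hmga2*+/+ and at 20.5 and 18.5 RPKM in *Hmga2*-/- MEF. *Stc2*, a secreted glycoprotein, passed the call in *Hmga2*+/+ MEF only, at 0.668 and 2.11 RPKM against 1.67 and 2.32 RPKM in *Hmga2*-/- MEF. These lists were drawn up from the known biology of the pathways, with earlier results of these data known. They are described by counts without a test of enrichment.

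**Figure D5:**
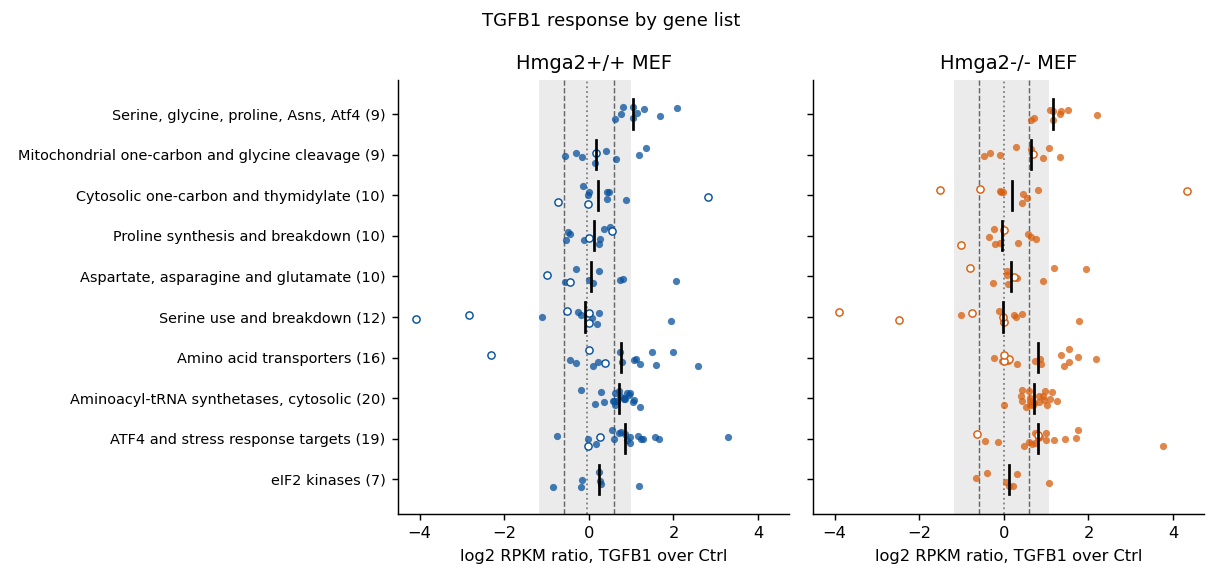
Log2 ratio of RPKM, TGFB1 over Ctrl (x axis), for each gene of 10 lists in *Hmga2*+/+ (left) and *Hmga2*-/- MEF (right). Black lines mark the median of a list, open points genes under 1 RPKM in every library, dashed lines 1.5-fold, and the grey band the 5th to 95th percentile of 10742 genes. The 9 genes of the first row have medians of 1.05 and 1.16, against 0.72 and 0.70 for the synthetases.

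Transcripts of the kinases that act upstream of ATF4 translation stayed under 1.5-fold. *Eif2ak1*, *Eif2ak2*, *Eif2ak3* and *Eif2ak4*, which phosphorylate eIF2α in response to heme loss, double-stranded RNA, endoplasmic reticulum stress and amino acid shortage, had log2 ratios of 0.23, -0.16, -0.19 and 0.26 in *Hmga2*+/+ MEF and 0.12, -0.39, 0.05 and 0.21 in *Hmga2*-/- MEF. *Gcn1*, a cofactor of EIF2AK4, had 0.29 and 0.30. *Impact*, an inhibitor of that kinase's activation, was lower with TGFB1, at 21.2 and 11.9 RPKM in *Hmga2*+/+ and at 18.1 and 11.5 RPKM in *Hmga2*-/- MEF. *Eif2s1*, which encodes eIF2α itself, was higher, at 31.8 and 72.0 RPKM and at 38.4 and 81.0 RPKM. Activity of these kinases was not measured.

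The CARE core of the promoter windows was found in 7 of 18 ATF4 and stress response targets, 5 of 13 aminoacyl-tRNA synthetases, 2 of 12 amino acid transporters and 1 of 8 genes of the aspartate list that had a window, beside 2 of the 9 genes described. No window of the one-carbon, proline, serine use or eIF2 kinase lists held it. Among the 27025 genes with a window, the share with the core was 4.51%. The list of ATF4 targets was drawn up from known biology, so its matches are no independent evidence. Of the genes described, those with the core were *Asns*, with log2 ratios of 2.09 and 2.20 in *Hmga2*+/+ and *Hmga2*-/- MEF, and *Pycr1*, with 0.77 and 1.10. Those without it ranged from 0.62 (*Psph*) to 1.69 (*Shmt2*) in *Hmga2*+/+ and from 0.63 (*Psph*) to 1.52 (*Shmt2*) in *Hmga2*-/- MEF.

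The pattern over the 4 libraries was summarized by the median of the 9 genes after each was centred on its mean log2 RPKM, which was -0.49 and 0.56 in *Hmga2*+/+ Ctrl and TGFB1 and -0.68 and 0.58 in *Hmga2*-/- Ctrl and TGFB1. Among 4193 other protein-coding genes with a mean of at least 10 RPKM, *Slc25a37* (Euclidean distance 0.0824), *Lamb1* (0.0883), *Adpgk* (0.118), *Iars* (0.135) and *Cyb5r1* (0.150) lay nearest to it over the 4 libraries. *Lamb1*, a laminin chain of the basement membrane, had 20.4, 45.1, 17.6 and 44.5 RPKM, and *Slc25a37*, a mitochondrial iron carrier, had 7.69, 16.7, 7.20 and 16.2 RPKM. Likeness over 4 libraries is a description only.

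Other transcripts of the 9 genes had similar ratios. *Aldh18a1* had 4 transcripts, *Psat1* 3, *Atf4*, *Pycr1* and *Shmt2* 2 each and the others 1, and transcripts of a gene share reads. The 3 *Psat1* transcripts had log2 ratios of 1.31, 1.27 and 1.25 in *Hmga2*+/+ MEF and 1.15, 1.16 and 1.18 in *Hmga2*-/- MEF. The second *Atf4* transcript had 1.06 and 1.17, and the second *Shmt2* transcript had 1.70 and 1.52. A 360-base transcript placed on *Aldh18a1* was at 0 in every library and lies where GENCODE also has the pseudogene *Gm15801* on the same strand. *Mthfd2* overlaps *Gm43890* on the same strand, and *Psph* and *Shmt2* overlap *Cct6a* and *Ndufa4l2* on the opposite strand. *Phgdh* has a processed pseudogene, *Phgdh-ps1*, and how reads that map to several places were counted is not given in the sources used here.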

How the data were processed

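RNA-seq libraries of *Hmga2*+/+ and *Hmga2*-/- MEF, Ctrl or TGFB1, 1 per condition, were analysed. Reads of 75 bases were trimmed with Trimmomatic and mapped to mm10 with HISAT2 2.1.0, and the authors deposited RPKM values per UCSC known gene transcript made with HOMER, on the annotated strand. The file header names exons as the counted feature and the paper's methods name genes. The deposited table also gives each transcript's length in bases (another unit). FastQC and SAMtools are named in the submitters' processing notes. The methods mention duplicates, and whether these were pooled is not stated. All columns of sample values were used.

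Transcripts were named by at least 50% of their span on a GENCODE vM21 gene of the same strand (57708 of 63759 transcripts), and the transcript with the longest gene body was used per gene. RPKM of 0 was set to 0.001 and calls were made at 1.5-fold, both after the study's methods. Mapped reads per library were derived from the steps of low RPKM values, which gave whole reads within 0.1 for all values tested, and each ratio has an exact (Clopper-Pearson) 95% interval from those reads. The difference of 2 log2 ratios has a normal-approximation interval. Both cover counting error only. No test and no p-value was computed. Named are the 9 genes, Hmga2, TGFB1 targets, up to 4 genes of a list that reached 1 RPKM and had the largest absolute log2 change in *Hmga2*+/+ MEF, genes of the proline and eIF2 kinase lists, and the 5 genes of nearest pattern. Markers of other cells were named as lists. The genes *Gldc*, *Slc25a32*, *Ftcd*, *Aldh1l1*, *Mthfs*, *Asrgl1*, *Sdsl*, *Gnmt*, *Sds*, *Cbs*, *Slc6a20b*, *Jdp2*, *Gdf15*, *Ddit3* and *Slc38a2* were named after their values were seen. Some genes that meet this rule are not reported here. The genes and lists were chosen with earlier results of these data known. Alternatives changed the value added to RPKM, the filter, the scaling, the transcript and the fold. The steps were tested on simulated data. Python 3.11.15, numpy 2.4.6, pandas 2.3.3, scipy 1.17.1 and matplotlib 3.10.9 were used. Promoter sequences are from RefSeq, GRCm38.p6.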

Additional observations from a re-analysis of the deposited data

How the results depend on the processing

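The TGFB1 to Ctrl ratios of the 9 genes kept their direction in every alternative. The number at least 1.5-fold higher with TGFB1 stayed at 9 in either genotype with a pseudocount of 0.1, with libraries rescaled by the median ratio and with the transcript of highest mean RPKM. With a pseudocount of 1 it was 7 in either genotype, and at 2-fold it was 6 in *Hmga2*+/+ and 7 in *Hmga2*-/- MEF. Over the 10742 genes the 95th percentile of the log2 ratio was 0.97 in *Hmga2*+/+ and 1.04 in *Hmga2*-/- MEF, near 2-fold. The share of all genes with a pseudocount of 1 is not given here. No gene passed between genotypes, nor in the difference of the responses, in any alternative. Of 144 log2 ratios of the 9 genes recomputed, 5 moved beyond their counting interval, all with a pseudocount of 1, where *Pycr1* came to 0.35 in *Hmga2*+/+ and 0.45 in *Hmga2*-/- MEF. Among the 376 recomputed counts of the other lists and shares of all genes, 63 moved by over 1.5 times, mostly counts of few genes. At 2-fold the synthetases fell from 15 to 3 in *Hmga2*+/+ and to 4 in *Hmga2*-/- MEF, and the ATF4 targets from 13 to 6 and from 15 to 5. With no filter on low values, between genotypes 7.76% of 20815 genes were higher and 7.41% lower in *Hmga2*-/- MEF in Ctrl, and 8.64% and 7.24% with TGFB1. With genes filtered on a mean of 1 RPKM instead, an alternative chosen after seeing the data, 11.1% of 10318 genes were higher with TGFB1 in *Hmga2*+/+ and 12.8% in *Hmga2*-/- MEF. The list medians without genes of a mean under 1 RPKM, and the rescaled intervals of the genotype difference in response, were also added after seeing the data.

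No paired analysis was possible because each condition has 1 library and so no replicate numbers are shared between groups, and no replicate can be left out. An additive model that takes the genotypes as pairs was not run. Depth limits the transcript used for *Pycr1*, with between 76 and 176 reads, most.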
